A study of Mus musculus with 2 samples.

Results

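The 33 genes described here encode the enzymes that turn glucose into pyruvate and lactate, those of the pentose phosphate pathway, and those that admit pyruvate to the mitochondrion. They were listed by name and role: 16 hexokinase, upper and lower glycolysis genes (Hk1, Hk2, Gpi1, Pfkl, Pfkm, Pfkp, Aldoa, Aldoc, Tpi1, Gapdh, Pgk1, Pgam1, Pgam2, Eno1, Eno3 and Pkm), the lactate dehydrogenases Ldha and Ldhb, the regulators Pfkfb2 and Pfkfb3, 7 pentose phosphate genes (G6pdx, Pgls, Pgd, Rpia, Rpe, Tkt and Taldo1), the pyruvate dehydrogenase genes Pdha1, Pdhb and Dlat, and the kinases Pdk1, Pdk2 and Pdk3. All 33 are among the 20830 genes listed for the 10% aliquot and the 26997 genes listed for the 90% aliquot, and 32 of them, all but Pfkfb2, are among the 12032 genes with isoform counts.

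Muscle stem cells (MuSCs) are the mononuclear cells that repair skeletal muscle. They came from Pax7creERT2 R26-eYFP fl/fl mice on a C57BL6 background, 3 months old, in which Pax7-driven Cre marks these cells with YFP after tamoxifen (100 uL at 20 mg/ml, daily for 5 days, with hindlimb muscle taken 2 weeks later). YFP-sorted quiescent cells from uninjured muscle and activated cells from muscle given 40 uL of 1.2% BaCl2 72 h earlier went through droplet capture together, and the captured droplets were divided into 10% and 90% aliquots. Both aliquots had short-read sequencing of 3′ ends and the 10% aliquot also had full-length long reads; the number of mice is not given in the sources used here, and the labels do not tell which cell was quiescent or activated.

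A barcode marks 1 droplet, usually 1 cell, and a unique molecular identifier (UMI) marks 1 captured transcript molecule. Since condition is not known per cell, barcodes were divided by depth and cycle genes: small barcodes had 3000 to 15000 short-read UMIs and 0 UMIs of Rrm2, Top2a and Cdk1, and deep barcodes had at least 20000 UMIs. This gave 157 small and 79 deep barcodes in the 10% aliquot, with median depths of 6729 and 65499 UMIs, and 1243 small and 606 deep barcodes in the 90% aliquot, with medians of 4680 and 47106 UMIs. The populations differ in depth and in cycle genes by construction, so depth, cell size and cell state cannot be told apart. Levels are UMIs of a gene per 1000000 UMIs summed over a population (CPM). All barcodes come from 1 capture, so there is no replicate and no test, and every 95% interval covers counting error only. A gene is said to rise or fall only where its CPM in deep barcodes was at least 2-fold higher or lower than in small barcodes in both aliquots.

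The aliquots were not independent. They shared 634 barcodes, all 157 small and all 79 deep barcodes of the 10% aliquot were also listed in the 90% aliquot, and of 263 shared barcodes with at least 3000 UMIs in both, 262 had their own barcode as the most similar profile. Where the 10% aliquot had 1 UMI of a gene in such a barcode, the 90% aliquot had a UMI of it in 76.0% of cases. Values are therefore also given for the 1000 small and 399 deep barcodes of the 90% aliquot that the other table does not list.

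MuSC markers fixed for the cell types were present. The 10 quiescence markers summed to 1181 CPM in small and 147 CPM in deep barcodes of the 10% aliquot (1454 and 151 CPM in the 90% aliquot), with Pax7 at 27.8 and 12.2 CPM and Calcr, a calcitonin receptor of quiescent MuSCs, at 23.3 and 0.196 CPM in the 10% aliquot. Of the 8 activation and cycle markers, 7 were at least 2-fold higher in deep barcodes, 3 of them by the rule that set them to 0 in small ones, while the activation factor Myod1 was higher in small ones (1106 and 185 CPM), so the small barcodes cannot be called quiescent from these genes alone.

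Glycolysis gives a cell ATP and carbon for biosynthesis without oxygen, the pentose phosphate pathway gives NADPH and ribose, and pyruvate dehydrogenase feeds pyruvate to the citrate cycle. MuSCs are known to move from a low metabolic rate in quiescence towards higher glycolytic flux on activation. Several steps are catalysed by paralogs with different tissue preferences, such as the muscle forms Eno3, Pgam2 and Pfkm, and pyruvate kinase is spliced to either an M1 or an M2 form.

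Pkm is shown first because its forms differ by 1 exon of equal length. Exon 9 of Pkm-202 (M1 form, chr9:59675029-59675195) and exon 10 of Pkm-201 (M2 form, chr9:59675568-59675734) lie on the + strand of GRCm38 in the GENCODE annotation. Each is a coding exon of 167 bases, and they are identical at 103 positions, 61.7% of their length. Capitals mark the 64 positions at which they differ, and lower case the shared ones.
Pkm-202 exon 9: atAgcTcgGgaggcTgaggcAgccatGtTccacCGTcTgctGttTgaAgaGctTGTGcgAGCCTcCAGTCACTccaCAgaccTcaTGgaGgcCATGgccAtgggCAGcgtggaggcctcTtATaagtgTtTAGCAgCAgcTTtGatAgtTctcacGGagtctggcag
Pkm-201 exon 10: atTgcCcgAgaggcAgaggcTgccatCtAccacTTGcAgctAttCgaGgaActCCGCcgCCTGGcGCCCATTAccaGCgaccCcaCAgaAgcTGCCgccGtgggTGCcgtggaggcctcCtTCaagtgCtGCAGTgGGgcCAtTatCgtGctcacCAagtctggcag

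The 250 bases upstream of the annotated start are given for 3 genes (RefSeq, GRCm38.p6): Eno3, the member with the largest rise, Ldha, the only riser with CACGTG in its window, and Hk2, the only member that fell. Capitals mark ACGTG or GCGTG on either strand, letters that HIF1 and MYC family factors are known to bind within longer sites; CACGTG contains ACGTG on both strands and is counted on each. Eno3 is chr11:70656926-70657175 (+), the first of the 2 Ldha windows is chr7:46845554-46845803 (+), and Hk2 is chr6:82774455-82774704 (-).
Eno3 promoter: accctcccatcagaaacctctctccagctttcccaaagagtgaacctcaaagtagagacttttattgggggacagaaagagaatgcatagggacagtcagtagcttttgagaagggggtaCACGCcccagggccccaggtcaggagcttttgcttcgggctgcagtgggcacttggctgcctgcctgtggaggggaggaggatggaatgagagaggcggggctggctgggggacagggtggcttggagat
Ldha promoter: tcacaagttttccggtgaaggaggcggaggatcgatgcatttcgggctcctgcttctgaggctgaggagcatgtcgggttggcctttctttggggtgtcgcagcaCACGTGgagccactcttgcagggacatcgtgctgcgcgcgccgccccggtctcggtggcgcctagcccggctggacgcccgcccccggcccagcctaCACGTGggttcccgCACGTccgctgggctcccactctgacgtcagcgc
Hk2 promoter: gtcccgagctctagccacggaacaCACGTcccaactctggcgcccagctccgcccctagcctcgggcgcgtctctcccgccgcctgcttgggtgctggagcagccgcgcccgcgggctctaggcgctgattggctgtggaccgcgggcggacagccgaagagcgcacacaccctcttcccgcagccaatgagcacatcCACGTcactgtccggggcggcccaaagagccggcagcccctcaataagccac
Ldha held 5 ACGTG matches, of which 4 came from its 2 CACGTG palindromes, Hk2 held 2 ACGTG matches and Eno3 held 1 GCGTG match. ACGTG was in at least 1 window of 12 of the 33 members and of 18.5% of 27025 genes, GCGTG in 23 members and 30.9% of genes, and CACGTG in 5 members and 6.86% of genes. Of the 20 members that rose in deep barcodes, 6 had ACGTG, 13 GCGTG and 1 CACGTG. Members with several annotated starts have several windows, and a match is letters in a window, not a binding site.

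Of the 33 members, 26 had enough counts to be compared. Of these, 20 rose in deep barcodes, 1 fell (Hk2) and 5 did neither (Hk1, Pfkp, Rpia, Tkt and Pdhb). Among all 9010 genes compared, 26.0% rose and 12.7% fell. The median fold of the members, deep over small, was 3.17 in the 10% aliquot and 3.05 in the 90% aliquot, against 1.26 and 1.27 over all genes. With every fold divided by that all-gene median, 14 members rose (18.9% of all genes did) and Hk2 fell (17.8% of genes did); Aldoa, Dlat, Pdha1, Pfkl, Rpe and Taldo1 no longer passed. In the barcodes only the 90% aliquot lists, 19 members still rose (25.5% of all genes did) and Hk2 fell (12.4% of genes did); Pfkl, at 1.83-fold, was the member that no longer passed. The other 7 members, Aldoc, Pdk1, Pdk2, Pfkfb2, Pfkfb3, Pfkm and Pgam2, had too few UMIs, and their values are given with their paralogs below.

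**Figure D1:**
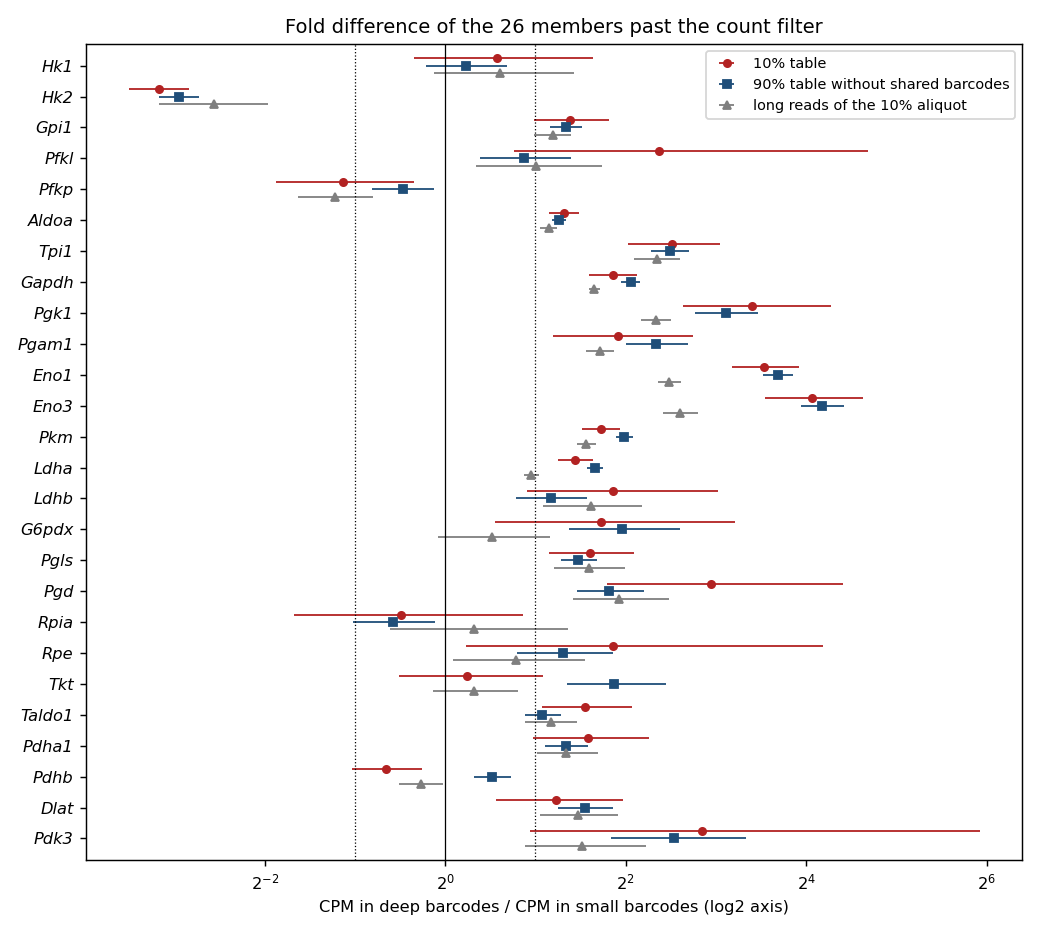
Fold in CPM, deep over small barcodes, for the 26 members with enough counts in the 10% aliquot, in the barcodes listed only for the 90% aliquot and in the long reads (log2 axis; bars are 95% counting intervals, dotted lines 2-fold). Eno3 (16.7, 18.1 and 6.08) sits farthest above 1, Hk2 sits below 1 in every readout, and Pdhb lies on opposite sides of 1 (0.636 and 1.43).

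The hexokinases, which trap glucose in the cell, moved differently from the rest. Hk2 (ENSMUSG00000000628) was at 201 CPM in small and 22.4 CPM in deep barcodes of the 10% aliquot, and at 115 and 14.7 CPM in the 90% aliquot. It was thus 8.99-fold lower in deep barcodes (interval 7.14 to 11.4) and 7.78-fold lower (6.90 to 8.77), and 7.72-fold lower in the barcodes listed only for the 90% aliquot. Hk1, the broadly expressed form, was at 9.87 and 14.7 CPM in the 10% aliquot and 10.5 and 13.3 CPM in the 90% aliquot. Its folds of 1.49 (0.787 to 3.11) and 1.26 (0.975 to 1.66) have intervals that include 1. The fall of Hk2 was also visible at equal depth: after thinning each barcode to 3000 UMIs, 29.3% of small and 7.59% of deep barcodes of the 10% aliquot had an Hk2 UMI, and 22.0% and 3.47% in the 90% aliquot. Unthinned, the order turned, with 41.4% of small and 57.0% of deep barcodes of the 10% aliquot having one.

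In upper glycolysis, 4 of 7 members rose. Gpi1, glucose phosphate isomerase, went from 47.6 to 124 CPM in the 10% aliquot and from 57.5 to 149 CPM in the 90% aliquot, 2.61-fold and 2.59-fold. Aldoa, the main muscle aldolase, went from 279 to 695 CPM and from 316 to 762 CPM, 2.49-fold (2.22 to 2.81) and 2.41-fold (2.31 to 2.53). Tpi1, triose phosphate isomerase, went from 31.4 to 180 CPM and from 37.4 to 215 CPM. Its 5.72-fold and 5.75-fold rises were higher than those of Aldoa and Gpi1, with intervals that do not overlap theirs. Aldoc, the aldolase best known from brain, had 0 UMIs in small barcodes of both aliquots, and 3 and 6 UMIs in deep ones.

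The phosphofructokinases, which commit sugar to glycolysis, did not move together. Pfkl, the liver form, had only 3 UMIs in small barcodes of the 10% aliquot (2.69 CPM) against 13.9 CPM in deep ones, a ratio of 5.17 (1.70 to 25.7), and was at 7.13 and 15.5 CPM in the 90% aliquot, 2.17-fold (1.60 to 3.01). Pfkp, the platelet form, was lower in deep barcodes in both aliquots, at 20.6 and 9.41 CPM and at 20.5 and 14.5 CPM, with folds of 0.456 (0.272 to 0.786) and 0.707 (0.580 to 0.866). The second of these missed the 2-fold limit. Pfkm, the muscle form, had 2 UMIs in small and 6 in deep barcodes of the 10% aliquot and 16 and 74 in the 90% aliquot, where its fold was 0.999 (0.576 to 1.84).

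Lower glycolysis held the largest rises: 6 of its 7 members rose and Pgam2 was too low to compare. Eno3 (ENSMUSG00000060600), the muscle enolase, had 30 UMIs in small and 2297 in deep barcodes of the 10% aliquot, 26.9 and 450 CPM, and was at 29.0 and 536 CPM in the 90% aliquot. Its rises of 16.7-fold (11.7 to 24.9) and 18.5-fold (16.0 to 21.5) were the largest of the members. In the 144 small and 76 deep barcodes that fell in the same population in both aliquots, the Eno3 fold was 29.7 in the 10% aliquot and 26.0 in the 90% aliquot. Eno1, the broadly expressed enolase, went from 57.4 to 666 CPM and from 57.7 to 755 CPM, 11.6-fold (9.06 to 15.1) and 13.1-fold (11.8 to 14.6), and 17.5-fold and 21.6-fold in those same 144 and 76 barcodes, so the size of both rises varied with the barcodes included. Pgk1, phosphoglycerate kinase and the first ATP-forming step, went from 12.6 to 132 CPM and from 14.3 to 118 CPM, 10.5-fold (6.23 to 19.4) and 8.29-fold (6.74 to 10.3). These 3 genes were each found in few small barcodes at equal depth: after thinning, Eno3 had a UMI in 5.10% of small and 68.4% of deep barcodes of the 10% aliquot Eno1 in 8.92% and 73.4%, and Pgk1 in 4.46% and 34.2%.

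Other lower glycolysis genes rose less. Gapdh, glyceraldehyde phosphate dehydrogenase, went from 114 to 413 CPM and from 154 to 641 CPM, 3.62-fold (3.03 to 4.37) and 4.17-fold (3.91 to 4.45). Pgam1, phosphoglycerate mutase, went from 14.4 to 54.1 CPM and from 14.6 to 71.3 CPM, 3.77-fold and 4.89-fold. Pkm, pyruvate kinase, went from 173 to 572 CPM and from 187 to 710 CPM, 3.30-fold (2.85 to 3.84) and 3.79-fold (3.58 to 4.02). Pgam2, the muscle mutase, had 1 and 4 UMIs in the 10% aliquot and 19 and 122 UMIs in the 90% aliquot.

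Both lactate dehydrogenases, which interconvert pyruvate and lactate, rose. Ldha, the muscle form, went from 211 to 573 CPM and from 209 to 658 CPM, 2.72-fold (2.38 to 3.12) and 3.15-fold (2.98 to 3.33). Ldhb, the heart form, went from 8.08 to 29.4 CPM and from 10.8 to 29.6 CPM, 3.64-fold (1.87 to 8.12) and 2.73-fold (2.14 to 3.53). The intervals of the paralogs overlap in both aliquots. Pfkfb2 and Pfkfb3, which set the level of the sugar phosphate that stimulates phosphofructokinase, had 1 and 0 UMIs and 1 and 6 UMIs in small and deep barcodes of the 10% aliquot. In the 90% aliquot they had 13 and 11 UMIs and 21 and 48 UMIs, which puts both at a lower CPM in deep barcodes there.

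In the pentose phosphate pathway the oxidative branch, which makes NADPH, rose as a whole, 3 of 3 genes. G6pdx, its entry enzyme, went from 5.38 to 17.8 CPM and from 4.65 to 20.2 CPM, 3.31-fold (1.47 to 9.27) and 4.35-fold (3.01 to 6.50). Pgls, the lactonase, went from 36.8 to 112 CPM and from 43.4 to 129 CPM, 3.04-fold and 2.96-fold. Pgd, the dehydrogenase that releases carbon dioxide, had 6 UMIs in small barcodes of the 10% aliquot and went from 5.38 to 41.4 CPM there and from 13.2 to 48.1 CPM in the 90% aliquot, 7.69-fold (3.47 to 21.2) and 3.65-fold (2.93 to 4.60).

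Of the 4 genes of the non-oxidative branch, which rearranges sugars, Rpe and Taldo1 rose. Rpe, the epimerase, had 3 UMIs in small barcodes of the 10% aliquot and went from 2.69 to 9.81 CPM and from 6.97 to 16.4 CPM, 3.64-fold (1.18 to 18.3) and 2.35-fold (1.73 to 3.27). Taldo1, transaldolase, went from 34.1 to 100.0 CPM and from 44.3 to 102 CPM, 2.93-fold and 2.30-fold. A single small barcode with 385 UMIs of the immune list held 15 of its 38 UMIs in the 10% aliquot; without the barcode with most Taldo1 UMIs in each population the fold there was 4.63. Rpia, the isomerase, was at 7.18 and 5.10 CPM and at 10.7 and 7.63 CPM. Tkt, transketolase, was at 15.3 and 18.0 CPM in the 10% aliquot (1.18-fold, 0.700 to 2.12) but at 6.66 and 22.6 CPM in the 90% aliquot (3.39-fold, 2.49 to 4.73).

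At the entry to the mitochondrion the subunits of pyruvate dehydrogenase differed. Pdha1, its catalytic alpha subunit, went from 20.6 to 61.8 CPM and from 31.3 to 76.6 CPM, 2.99-fold and 2.45-fold. Dlat, the acetyltransferase core, went from 17.9 to 42.0 CPM and from 18.0 to 56.4 CPM, 2.34-fold (1.48 to 3.91) and 3.14-fold (2.60 to 3.82). Pdhb, the beta subunit that pairs with Pdha1, went the other way in the 10% aliquot, at 69.1 and 43.9 CPM (0.636-fold, 0.489 to 0.835), and was at 50.1 and 63.6 CPM in the 90% aliquot (1.27-fold, 1.13 to 1.43). The 144 small and 76 deep barcodes of the 10% aliquot that fell in the same population in the 90% aliquot had a Pdhb fold of 0.637 in the 10% aliquot and 0.690 (0.519 to 0.929) in the 90% aliquot, while the barcodes listed only for the 90% aliquot had 1.43 (1.24 to 1.66). Whether the shared barcodes are separate readings in the 2 aliquots was not tested.

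The kinases that switch pyruvate dehydrogenase off were sparse. Pdk3 had 2 UMIs in small barcodes of the 10% aliquot, 1.79 against 12.9 CPM in deep ones, a ratio of 7.21 (1.92 to 60.8), and rose from 3.10 to 17.8 CPM in the 90% aliquot, 5.76-fold (3.69 to 9.50). Pdk1 had 1 and 3 UMIs in the 10% aliquot and 8 and 21 in the 90% aliquot. Pdk2 had 1 and 6 UMIs and 11 and 45 UMIs. Of the 3 kinases, Pdk3 was the only one with enough UMIs to compare. In the barcodes of the same population in both aliquots, the fold of Pdk3 was 13.6 in the 10% aliquot (1 UMI in small barcodes) and 14.0 in the 90% aliquot. Other members whose fold moved by over 1.5 times in those barcodes were Tkt (1.90 and 2.02) and, in the 90% aliquot, Ldhb (6.43), Pdhb (0.690), Pfkl (4.45) and Rpe (4.18), Pfkl and Rpe from 3 UMIs each in small barcodes; Pfkm and Pgam2 also moved, from too few UMIs to read.

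Summed over all 33 genes, members took 0.143% (0.136 to 0.150) of the UMIs of small and 0.442% (0.436 to 0.448) of those of deep barcodes in the 10% aliquot, a fold of 3.09 (2.93 to 3.25). In the 90% aliquot the shares were 0.149% and 0.527%, a fold of 3.55 (3.48 to 3.62), and 3.58 in the barcodes that it alone lists. The size of the share depended on the method. In long reads of the 10% aliquot it was 0.612% in small and 1.83% in deep barcodes, of UMIs on genes with isoform counts, a fold of 2.98. The short-read sums leave out the Gapdh pseudogenes, at 2010 and 7371 CPM in small and deep barcodes of the 10% aliquot. The populations overlapped little: the median share per barcode was 0.115% in small and 0.399% in deep barcodes of the 10% aliquot and 0.120% and 0.492% in the 90% aliquot, and 89.9% and 98.8% of deep barcodes lay above the 90th percentile of small ones. In the 90% aliquot the share climbed with depth also among barcodes with 0 cycle UMIs. It was 0.129% in 730 such barcodes of 3000 to 5000 UMIs, 0.232% in 43 of 10000 to 15000, 0.424% in 24 of 20000 to 40000 and 0.543% in 11 of 40000 to 60000. In the 10% aliquot it did not climb below 20000 UMIs, at 0.175% in 36 barcodes of 3000 to 5000, 0.128% in 100 of 5000 to 10000, 0.167% in 21 of 10000 to 15000 and 0.152% in 6 of 15000 to 20000, and was 0.316% in 7 of 20000 to 40000 and 0.426% in 2 of 40000 to 60000. Barcodes with 1 or more cycle UMIs had, in the 90% aliquot, 0.212% at 3000 to 5000 UMIs and 0.556% at 60000 or more.

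**Figure D2:**
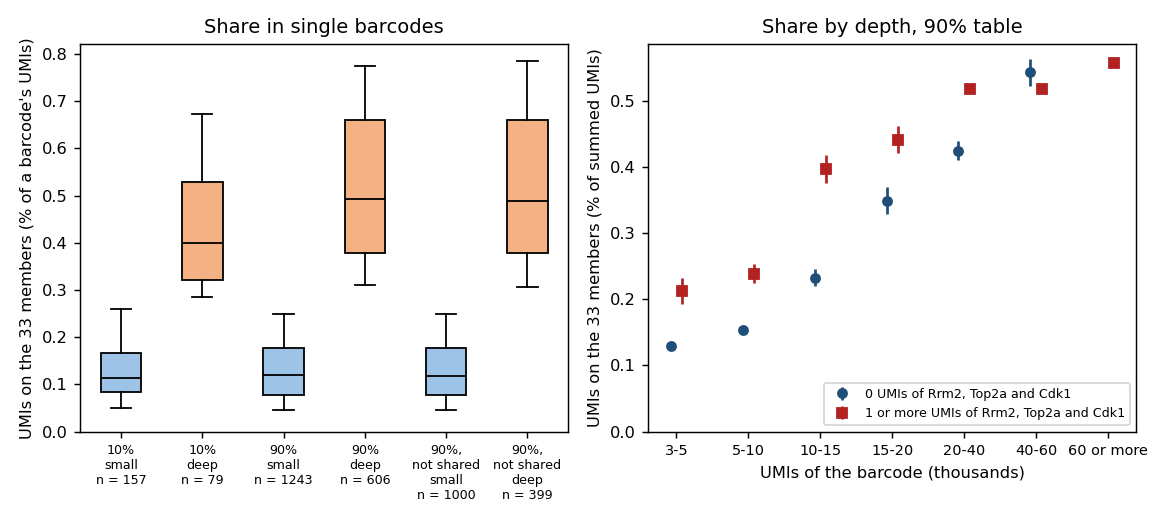
Left, share of each barcode's UMIs on the 33 members (percent) in small and deep barcodes, with medians of 0.115% and 0.399% in the 10% aliquot and 0.120% and 0.492% in the 90% aliquot (boxes are quartiles, whiskers the 10th and 90th percentiles). Right, the summed share by depth in the 90% aliquot with 95% counting intervals, which climbs from 0.129% to 0.543% in barcodes with 0 cycle UMIs.

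Barcodes under 300 UMIs were taken as a reading of RNA free in the suspension, and they held UMIs of members, of which Aldoa, Eno1, Eno3 and Ldha are given here. Whether such barcodes held no cell, or stray reads of other barcodes, was not tested. Barcodes under 300 UMIs (1589 with 41246 UMIs in the 10% aliquot, 262 with 48432 UMIs in the 90% aliquot) had Aldoa at 752 and 516 CPM, Eno1 at 461 and 454 CPM, Eno3 at 388 and 186 CPM and Ldha at 558 and 392 CPM, all from few UMIs and all above the level in small barcodes. The myofibre list, 10 contractile and muscle enzyme genes, was at 630 and 496 CPM there, from 26 and 24 UMIs, and at 80.8 and 75.7 CPM in small and deep barcodes of the 10% aliquot and 117 and 112 CPM in the 90% aliquot. The sum of that list thus differed little between the populations, but its genes went both ways. Of the 10, and counting those with over 3 UMIs in the higher population, 2 were at least 2-fold lower and 2 at least 2-fold higher in deep barcodes of the 10% aliquot, and 4 and 2 in the 90% aliquot. Acta1 (28.7 and 10.4 CPM) and Ckm (15.3 and 1.18 CPM) were lower and Tnni2, a fast troponin gene, higher (5.38 and 27.5 CPM) in deep barcodes of the 10% aliquot. The part of free RNA in the levels of small barcodes was not tested.

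The summed markers of other cells were mostly higher in small barcodes, but the genes of a list could go both ways. The fibro-adipogenic list was at 436 and 109 CPM in the 10% aliquot and 599 and 81.1 CPM in the 90% aliquot. Counted as for the myofibre list, 2 of its 6 genes were higher in small and 2 in deep barcodes of the 10% aliquot. In the 90% aliquot these counts were 4 and 1. For the 9 immune genes the counts were 4 and 3 in the 10% aliquot, and 9 and 0 in the 90% aliquot. The immune list was at 347 and 93.9 CPM and at 280 and 5.62 CPM, and 385 of its 387 UMIs in small and 459 of its 479 UMIs in deep barcodes of the 10% aliquot came from 1 barcode each. The glial list had 70 of its 72 UMIs in small barcodes of the 10% aliquot in 1 barcode. The part of these other cells in the members' levels was not tested. The pericyte list was at 85.2 and 78.4 CPM and at 92.1 and 47.9 CPM, and the differentiation list at 45.8 and 56.7 CPM and at 98.9 and 118 CPM. Endothelial genes stayed at or below 13.0 CPM and erythroid genes at or below 2.71 CPM in all of these populations. Leaving out barcodes with at least 3 immune UMIs kept the count at 20 risen and 1 fallen, beside 26.8% and 12.8% of all genes. That removed few small barcodes, 1 of 157 in the 10% aliquot and 9 of 1243 in the 90% aliquot. At least 3 fibro-adipogenic UMIs were found in 67 small and 33 deep barcodes of the 10% aliquot. In the 90% aliquot 500 small and 256 deep barcodes had as many. No setting left these barcodes out.

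The rest of the pathway was read from 44 genes of sugar transport, glycogen, lactate transport, isozymes and regulators. Of the 18 that could be compared, 2 rose and 4 fell, beside 26.0% and 12.7% of all genes, and the median folds were 0.956 and 1.46, beside 1.26 and 1.27 over all genes. Gpd2, the mitochondrial glycerol phosphate dehydrogenase, rose 7.50-fold and 5.60-fold, the first from 3 UMIs in small barcodes. Pgm1 had 0 UMIs in small barcodes of the 10% aliquot, which allows up to 2.69 CPM, against 11.0 CPM in deep ones, and rose 4.97-fold in the 90% aliquot. Its relative Pgm2 fell 3.72-fold and 2.98-fold. Slc16a3, the lactate exporter MCT4, fell 14.1-fold and 15.3-fold, from 30.5 to 2.16 CPM and from 35.8 to 2.34 CPM. Myc, a transcription factor known to act on glycolytic genes, fell 8.99-fold and 8.59-fold. Pdp1, the phosphatase that reactivates pyruvate dehydrogenase, fell 3.34-fold and 5.43-fold. The glucose transporter gene Slc2a1 was at 12.6 and 9.41 CPM and at 13.0 and 10.7 CPM.

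The citrate cycle burns the acetyl groups made by pyruvate dehydrogenase. All 17 genes listed under it could be compared, and 12 rose and 0 fell, beside 26.0% and 12.7% of all genes. Their median folds were 3.23 and 3.62, beside 1.26 and 1.27 over all genes. Idh3a, an isocitrate dehydrogenase subunit, rose 6.16-fold and 5.97-fold, and Cs, citrate synthase, 3.01-fold and 3.20-fold. Mdh1, the cytosolic malate dehydrogenase, was on the list too and rose 4.87-fold and 4.58-fold. Mdh2, the mitochondrial one, rose 4.38-fold and 3.62-fold.

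Among deep barcodes, those with at least 3 UMIs of Myog, a factor of myoblast differentiation, were compared with those with 0: 74 against 460 in the 90% aliquot. Pgam2 was the member that stood out, at 18.5 CPM with Myog and 1.86 CPM without, 9.91-fold (6.65 to 14.9), and 8.41-fold in the barcodes listed only for that aliquot. Its counts in the 10% aliquot, 2 and 1 UMIs, were too few to read. Acta1, the skeletal actin gene, was 31.6-fold higher in the same barcodes. Pdk2 was at 3.26 and 1.24 CPM (2.62-fold, 1.22 to 5.33). Tkt was lower with Myog, at 13.3 and 25.0 CPM (0.532-fold, 0.389 to 0.713). The enolases barely differed in the 90% aliquot, Eno3 at 583 and 534 CPM and Eno1 at 725 and 775 CPM. In the 10% aliquot, with 8 and 67 barcodes, each went the other way. Eno3 was lower with Myog (0.852-fold, 0.733 to 0.986) and Eno1 higher (1.18-fold, 1.06 to 1.31). In the 90% aliquot the Myog barcodes had a median of 49479.5 UMIs and the others 46607.5, so their depths were close. Cycle UMIs were found in 83.8% of those Myog barcodes and in 95.7% of the others.

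Among small barcodes, those with at least 1 UMI of Myod1 (604 in the 90% aliquot, 83 in the 10% aliquot) were compared with those with 0 (639 and 74). Hk2 and Ldha were higher with Myod1, Hk2 at 132 and 97.4 CPM (1.36-fold, 1.17 to 1.58) and Ldha at 233 and 186 CPM (1.25-fold, 1.12 to 1.39) in the 90% aliquot, with folds of 1.28 and 1.44 in the 10% aliquot. Pgk1, Taldo1, Eno1 and Tpi1 were lower, with folds of 0.431, 0.533, 0.648 and 0.676 in the 90% aliquot and 0.487, 0.357, 0.600 and 0.458 in the 10% aliquot. In the 10% aliquot the intervals of Pgk1 (5 and 9 UMIs) and of Eno1 (0.350 to 1.01) included 1. Taldo1 rested there on 11 and 27 UMIs, and without barcodes with at least 3 immune UMIs it had 11 and 12, a fold of 0.784 (0.313 to 1.94), and 0.787 (0.597 to 1.03) in the 90% aliquot. Also without those barcodes, Aldoa and Pkm were lower with Myod1 by less, with intervals below 1. Their folds were 0.747 and 0.656 in the 10% aliquot and 0.876 and 0.863 in the 90% aliquot. Pgls was at 0.663 (0.513 to 0.854) in the 90% aliquot. Pgam1 and G6pdx were above 1 in both aliquots, with intervals that include 1. Hk2, which fell in deep barcodes, was thus among the members higher in Myod1-positive small barcodes, with an interval in the 10% aliquot (0.975 to 1.69) that includes 1.

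The long reads of the 10% aliquot read the same barcodes, mostly with smaller folds. They could compare 27 members, of which 17 rose and 3 fell (Hk2, Pfkm and Pfkp), with 29.4% and 19.5% of genes rising and falling, and a median fold of 2.28. For the 20 members that rose in short reads the long-read fold was below both short-read folds in 15 and above 1 in all 20. Eno3 rose 6.08-fold, Eno1 5.59-fold and Pgk1 5.03-fold, and Hk2 was 5.90-fold lower. Pfkm had 17 and 14 UMIs, 4.07-fold lower in deep barcodes. The cycle genes were not fully absent from small barcodes in long reads, with 48 UMIs of Rrm2, 14 of Top2a and 15 of Cdk1.

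Some members were counted at very different levels by the 2 methods. The 2 CPM scales do not cover the same genes: those with isoform counts held 58.5% of the short-read UMIs of the 10% aliquot. In deep barcodes the long-read CPM was 16.5 times the short-read CPM for Pgam1, 13.7 times for Gapdh and 8.70 times for Pgk1, 3.37 times for Eno1, 2.30 times for Eno3 and 1.19 times for Pgls, but 0.367 times for Hk2; the median over 7618 genes was 1.96. Gapdh has 105 annotated pseudogenes that share sequence with the 3′ end of its transcripts, of which 97 are listed in the 10% aliquot and 101 in the 90% aliquot. These held 2010 and 7371 CPM in small and deep barcodes of the 10% aliquot, far above the 114 and 413 CPM of Gapdh itself. Gapdh and its pseudogenes together went from 2124 to 7784 CPM, 3.66-fold, and 4.28-fold in the 90% aliquot, so the rise was of like size with and without them. For Eno1 the pseudogenes added 9.87 and 104 CPM, and the summed fold was 11.5. Levels of Gapdh and Eno1 are uncertain to this extent. The same search gave 0 pseudogenes for Pgam1 and 0 for Pgk1, and the cause of the difference between methods was not tested for them.

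**Figure D3:**
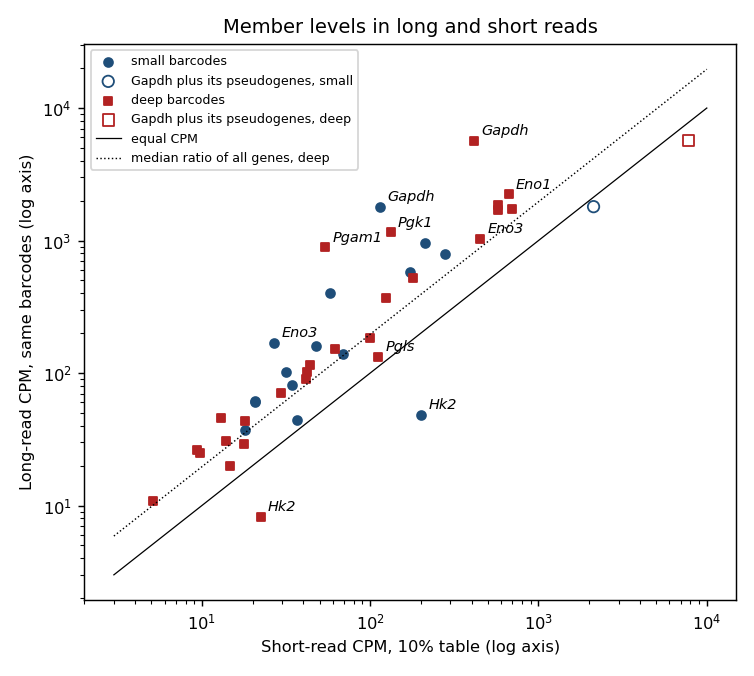
Long-read CPM against short-read CPM of the members with at least 20 short-read UMIs in small and in deep barcodes of the 10% aliquot (both axes log; solid line, equal CPM; dotted line, the median ratio of 1.96 in deep barcodes). Gapdh and Pgam1 sit far above the dotted line and Hk2 below both lines. Open symbols place Gapdh with its pseudogenes added, below the line of equal CPM and further below the dotted line.

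Isoforms were compared by their share of a gene's long-read UMIs, in percentage points, a scale that cannot be set against folds of CPM. Of 16 members with at least 50 long-read UMIs in both populations, 1, Pdhb, had an isoform whose share differed by at least 20 percentage points, against 17.3% of 3265 genes. The median of the largest shift per gene was 8.80 points for members and 10.6 points for all genes, which were not matched to the members in UMI counts. Pdhb-201, its reference isoform, held 54.7% of the 192 Pdhb UMIs of small and 79.2% of the 533 of deep barcodes, a difference of 24.5 points (16.7 to 32.3). The shares of 2 unnamed Pdhb isoforms that stop short of the longest ones (chr14:8165996-8172947), at chr14:8170586-8172947 and chr14:8170855-8172947 on the minus strand, were lower in deep barcodes, the first at 16.1% and 2.25% and the second at 10.9% and 2.81% in small and deep barcodes.

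The next largest shifts were of Dlat, where an unnamed isoform held 19.6% and 1.69%, of Pfkp (-15.7 points), of Ldha, where Ldha-202 went from 79.4% to 92.3%, and of Aldoa, where Aldoa-201 went from 73.1% to 84.0%. The named isoforms of the enolase with the largest rise hardly moved: Eno3-201 held 66.4% and 71.8% and Eno3-202 24.7% and 21.3%. Gapdh-203 held 62.3% and 61.8%. The share of long-read UMIs on isoforms ending over 200 bases from every annotated 3′ end had a median over members of 0.541% in small and 0.204% in deep barcodes and over all genes of 9.50% and 4.97%. It was highest among the members in Dlat, at 96.1% and 90.5%.

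**Figure D4:**
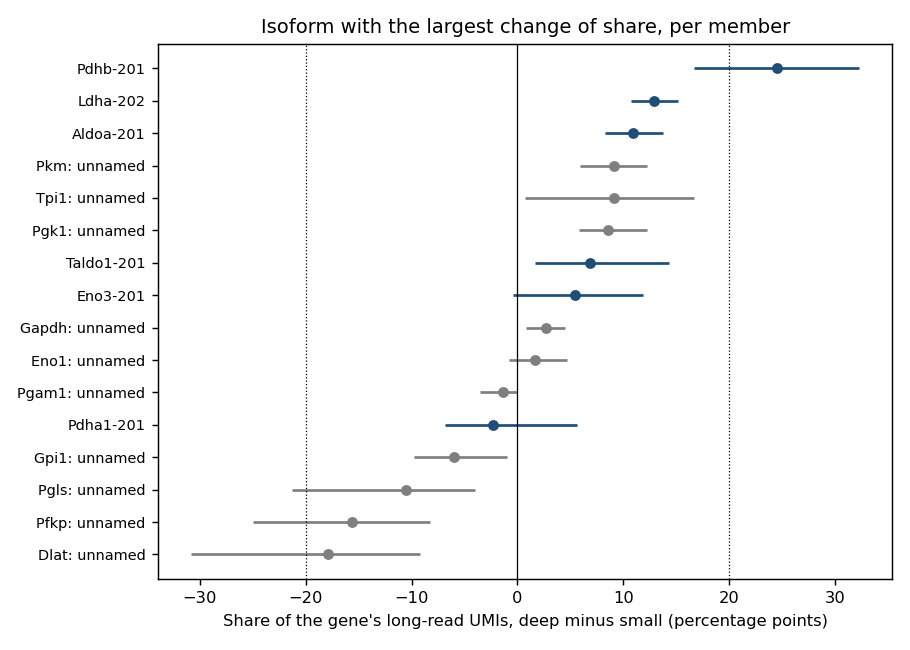
Largest change in the share of 1 isoform (percentage points, deep minus small) for the 16 members with at least 50 long-read UMIs in each population, with 95% intervals (blue, reference-named isoforms; grey, unnamed). Pdhb-201, at 24.5 points, is the only one past the dotted lines at 20 points.

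The isoform table gave no measure of the Pkm M1 share by reference name. The only reference-named Pkm isoforms in it were Pkm-201, which has the M2 exon, with 394 UMIs in small and 3744 in deep barcodes, and Pkm-205, counted in neither form, with 18 and 127 UMIs. Since no reference-named isoform with the M1 exon was listed, the 0 UMIs of M1 by name were fixed by the list. Reference-named isoforms held 51.4% and 48.8% of Pkm UMIs. Pkm-201 alone held 49.1% and 47.2%, and an unnamed isoform 24.6% and 33.7%. In the deposited isoform annotation, 2 Pkm entries had the M1 exon, with 914 supporting reads over all cells, and 10 had the M2 exon, with 15010, so M1 was 5.74% of the reads of both. Counting unnamed isoforms by these entries, M1 was 1.05% (7 M1 and 660 M2 UMIs) in small and 1.13% (82 and 7188 UMIs) in deep barcodes, but the numbering of the entries did not match the counted isoforms, so these shares are uncertain and give no comparison of M1 between the populations. M2 was the form with most supporting reads.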

How the data were processed

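Cells were captured with 10x Genomics v2 3′ chemistry. The authors made the deposited gene tables, UMI counts per gene and barcode from short reads, with scPipe, and the deposited isoform table, UMI counts per isoform and barcode from nanopore reads of the 10% aliquot, with FLAMES. The submitters' processing notes also name Cell Ranger 1.3, minimap2 2.17 and GRCm38.p6. Totals were 6772259 UMIs in 1991 barcodes (10% aliquot, short reads), 39044129 UMIs in 3001 barcodes (90% aliquot) and 8297203 UMIs (long reads). No count model was used, as there is 1 capture.

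From these counts, UMIs were summed over small and deep barcodes and divided by all UMIs of those barcodes, giving CPM with exact Poisson intervals. Folds have exact conditional binomial intervals, shares Clopper-Pearson intervals and share differences Newcombe intervals, all at 95%. A gene was compared where at least 5 UMIs would be expected in each population at equal CPM. A count of 0 allows 3 counts. Barcodes of small depth left out for cycle UMIs numbered 21 and 148. Thinning drew 3000 UMIs per barcode once, from a fixed seed. Doublets were not removed. Isoform shares needed 50 UMIs in both populations. Named genes were all members by role, with values for those 2-fold different in both aliquots, opposite between aliquots, highest in their role or paired paralogs, plus list genes past 2-fold. Slc2a1, outside this rule, was chosen after its values were seen. Scripts (Python 3.11.15, numpy 2.4.6, scipy 1.17.1) were tested on simulated data. Alternatives were other depth limits, scalings, filters and fold limits, and each table alone. The members and lists were chosen with earlier results of these data known.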

Additional observations from a re-analysis of the deposited data

Results flagged for a closer look

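Pdhb was on opposite sides of 1 in the aliquots: its fold, deep over small, was 0.636 in the 10% aliquot and 1.27 in the 90% aliquot, and each interval kept to its side of 1. The difference between the aliquots was not tested. The Gapdh pseudogenes, which are outside the 33 genes, carried 2010 CPM in small and 7371 CPM in deep barcodes of the 10% aliquot, more than Gapdh itself (114 and 413 CPM).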

How the results depend on the processing

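The count of 20 risen members (26.0% of all genes) became 11 of 17 compared (20.7%) after thinning to 3000 UMIs and 10 (14.6%) at a 3-fold limit, and lay between 14 and 21 in the other settings, 14 when folds were divided by the median over all genes (18.9%) and elsewhere beside 21.6% to 37.1% of all genes. The count of 1 fallen member (12.7%) became 2 with no filter (16.25%), in the 10% aliquot alone (15.6%) or in the 90% aliquot alone (18.5%), and 3 in long reads (19.5%). The fold of the summed share, 3.09 and 3.55 in the 10% and 90% aliquots, was 2.80 and 3.15 with no condition on cycle genes and 2.44 and 2.79 divided by the median fold; in the 90% aliquot it was also 3.19 with small barcodes of 5000 to 15000 UMIs, 3.47 with deep barcodes of 20000 to 60000, 3.42 without mitochondrial and ribosomal protein genes, 3.70 as a mean over barcodes and 3.72 thinned. Members with an isoform shift were 1 of 16 in the report, beside 17.3% of all genes. They numbered 5 at 20 UMIs, 6 at 10 points and 0 at 30 points. The count was also 0 when shares were recomputed over reference-named isoforms alone, which left 9 members. The shares of all genes at these other settings are not given here, so these counts do not set members against other genes. The M1 share of Pkm, 0 by reference name as no such isoform is listed, was 1.05% and 1.13% with unnamed isoforms. Of 505 alternative values of 46 called member folds, 504 kept their direction, and the log2 fold of Dlat in the 10% aliquot turned to -0.0092 after thinning. The causes were not tested. The barcodes listed only for the 90% aliquot, the Myod1 comparison without immune barcodes and the share of isoform ends away from annotated ends were alternatives chosen after seeing the data. No paired analysis was possible because there is 1 library per aliquot and the result comes from no test. Genes with under 10 UMIs in small barcodes of the 10% aliquot, such as Pfkl, Pgd, Rpe and Pdk3, have wide intervals.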
